A study of Mus musculus with 24 samples.

Results

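The response of *Lkb1*-/- mouse embryonic fibroblasts (MEFs) to IL-1β was described from 6 RNA-seq libraries, 3 made from cells that received IL-1β and 3 from untreated cells of the same genotype. They were chosen by the genotype and treatment in their titles, and they are 6 of the 24 libraries of the series. The other 18 libraries came from wild-type MEFs and from A1 and A2, which are clones of *Lkb1*-/-/*Crtc2*-/- MEFs, each with 3 untreated and 3 IL-1β libraries. All of the cells were 3T3 MEFs, fibroblasts from mouse embryos that grow indefinitely in culture. By the study's methods IL-1β was used at 0.1 ng/mL for 6 hours. The *Lkb1*-/- cells are 1 line that lacks the kinase LKB1, encoded by *Stk11*, and each double knockout is 1 clone made by CRISPR/Cas9 editing of *Crtc2* in that line, so that a difference between genotypes and a difference between lines cannot be told apart. The labels number the libraries of each group but do not say that they are separate cultures, so that the p-values below measure the spread between libraries, which may be technical. The comparison asked which genes change when cells without LKB1 meet this cytokine.

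IL-1β binds the receptor IL1R1 on fibroblasts, and the adaptor MYD88 and kinases of the IRAK family carry the signal to the transcription factor NF-κB and, through MAP kinases, to AP-1. Stromal cells are known to answer it with cytokines, chemokines that draw neutrophils, proteases of the matrix and enzymes that make prostaglandins and nitric oxide, together with inhibitors that end the signal. LKB1 is a kinase that activates AMPK and the salt-inducible kinases, and the latter keep the CRTC coactivators of CREB out of the nucleus.

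The 6 libraries held between 38842901 and 48594394 counts on genes, with a median of 42090387.5. *Stk11* was low in all of them, at 18.7, 17.0 and 16.3 normalized counts scaled to library size (CPM) untreated and 17.2, 16.8 and 16.3 CPM after IL-1β, whereas untreated wild-type libraries had between 84.6 and 87.9 CPM. Replicate 1 stood apart from replicates 2 and 3 in every group of the series. In a chi-square comparison of counts over genes, untreated *Lkb1*-/- replicate 1 differed from replicates 2 and 3 by 53.3 and 57.1 per degree of freedom, against 9.18 between replicates 2 and 3, and after IL-1β these values were 72.0, 72.4 and 7.41. In a principal component analysis of the 6 libraries the first component held 40.9% of the variance and separated the treatments, and the second held 26.1% and separated replicate 1 from the others. Replicate 1 after IL-1β also had the largest share of read pairs that named no gene, 34.4%, against 28.3% to 31.0% in the other 5 libraries. No pair of libraries was a duplicate. Of 12 fibroblast markers, *Col1a1*, *Fn1* and *Vim* were abundant, with at least 932 CPM in every library, while *Thy1*, *Lum* and *Fap* had at most 0.168 CPM. The summed level of these markers was 6814 to 7792 CPM untreated and 5855 to 7322 CPM after IL-1β. The 14 markers of macrophages and other leukocytes summed to 6.74 to 10.6 CPM untreated and 7.89 to 10.5 CPM after IL-1β, with *Adgre1*, *S100a9*, *Cd3e* and *Nkg7* at 0 in all 6 libraries, and none of the 6 tested passed. The 12 markers of epithelium and endothelium summed to between 3.14 and 4.01 CPM.

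IL-1β raised 464 genes and lowered 367 genes in *Lkb1*-/- MEFs at a Benjamini-Hochberg false discovery rate (FDR) under 0.05 in edgeR's quasi-likelihood test, which are 2.65% and 2.09%, together 4.74%, of the 17522 genes tested. The rises were larger than the falls. Among the 464 genes the median log2 fold change was 0.88, 206 exceeded 1, 96 exceeded 2 and 23 exceeded 4. Among the 367 genes the median size was 0.60, 61 fell by more than 1, 9 by more than 2 and none by more than 4. The untreated and IL-1β libraries did not overlap for 462 of the 464 and for 366 of the 367 genes, against 9.07% of all genes without overlap and higher and 11.2% without overlap and lower. Of the genes that rose, 87 had a mean under 1 CPM in untreated cells. Protein-coding genes made up 433 of the rises and 354 of the falls. With the replicate number as a block, which used the pairing of equally numbered libraries, 1011 genes rose (5.77%) and 1590 fell (9.07%), and these included all of the 464 and all of the 367 genes. Leaving replicate 1 out of every group gave 735 (4.21%) and 799 genes (4.58%) among 17455 tested, which included 427 of the 464 and 324 of the 367. The number of falls dropped to 192 without IL-1β replicate 1, 205 without untreated replicate 2, 219 without untreated replicate 3 and 235 without IL-1β replicate 2. The counts of lists below stand against 2.65% higher and 2.09% lower over all genes, or 5.77% and 9.07% with the block. In bulk RNA, fewer cells of a type and less RNA per cell cannot be told apart.

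**Figure D1:**
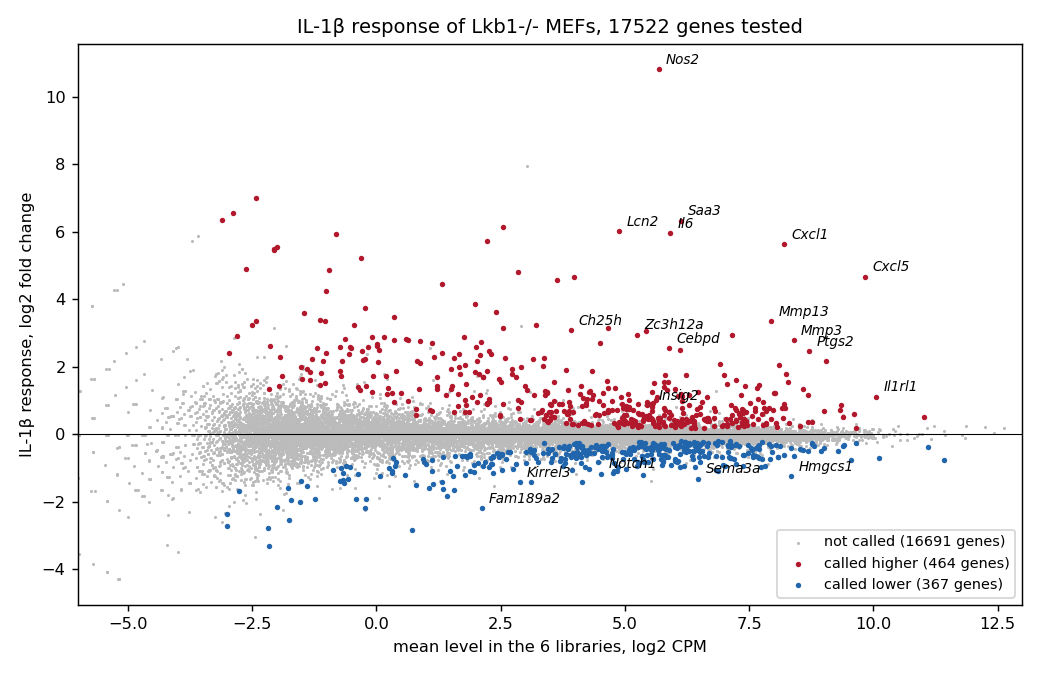
Each point is 1 of the 17522 genes tested, with its mean level over the 6 *Lkb1*-/- libraries in log2 CPM on the horizontal axis and its IL-1β response as a log2 fold change on the vertical axis. The 464 genes called higher (red) reach up to *Nos2*, and the 367 genes called lower (blue) stay closer to 0. Grey points are not called.

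The genes with the largest rises were *Nos2*, *Saa3*, *Lcn2*, *Il6*, *Cxcl1*, *Il13ra2*, *Cxcl5*, *Cxcl2*, *Steap4*, *Penk*, *Mmp13* and *Mmp10*, ranked by log2 fold change among the called genes that were not rare (mean log2 CPM over 1) and whose groups did not overlap. *Nos2*, which encodes inducible nitric oxide synthase, had 7 counts in all in the untreated libraries, with 0.0226, 0.0696 and 0.0714 CPM, and 60.0, 122 and 126 CPM after IL-1β. The ratio of its summed counts was 1910, with a 95% counting interval from 927 to 4752 (edgeR FDR = 7.64e-09). *Il13ra2*, on the X chromosome, encodes a receptor for IL-13 that is known as a decoy. It had 0.407, 0.510 and 0.571 CPM untreated and 13.2, 13.2 and 15.1 CPM after IL-1β (log2 fold change 4.80 ± 0.39 SE, FDR = 1.73e-07 by edgeR). *Penk*, the precursor of the enkephalin peptides, had 0.589, 0.789 and 1.02 CPM untreated and 7.60, 10.1 and 11.9 CPM after IL-1β (log2 fold change 3.62 ± 0.26 SE, FDR = 7.64e-09 by edgeR). In each of these genes every stimulated library lay above every untreated library, and for *Nos2*, *Saa3*, *Lcn2* and *Steap4* replicate 1 was the lowest of the 3 stimulated libraries.

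**Figure D2:**
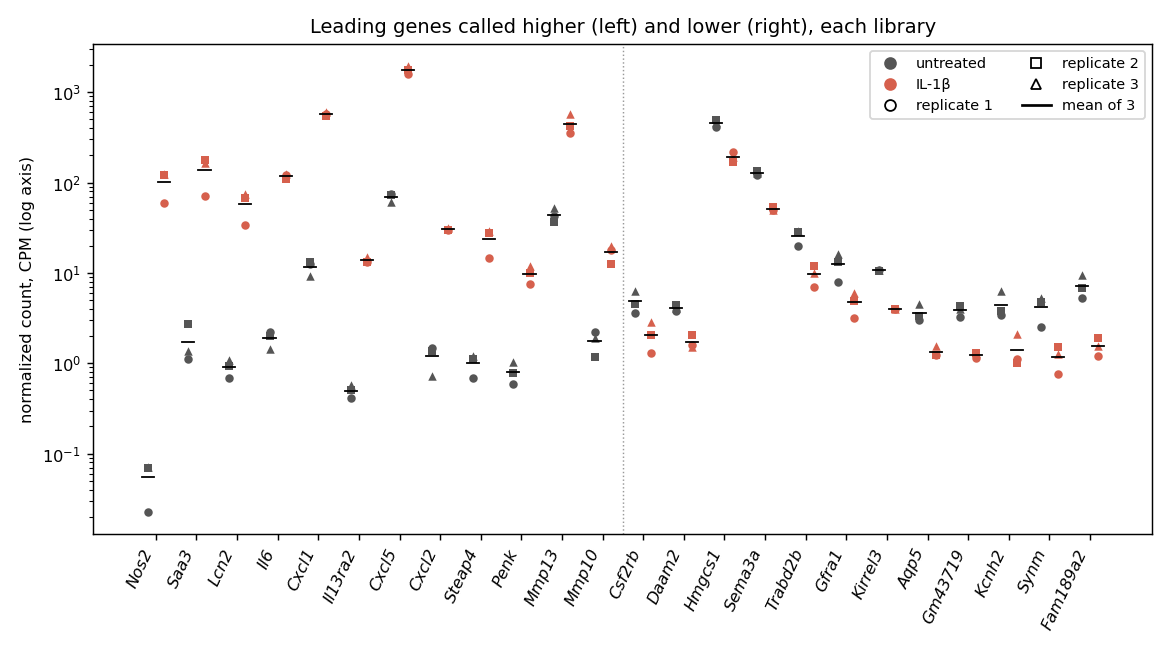
Normalized counts (CPM, log axis) of the 12 leading genes that rose and the 12 that fell are shown for each of the 6 libraries, with grey symbols for untreated and red symbols for IL-1β libraries, shapes for the replicate number and bars for the mean of 3. For each gene the grey and red symbols are separate, from *Nos2* at 0.0226 to 0.0714 CPM against 60.0 to 126 CPM to *Csf2rb* at 3.64 to 6.31 CPM against 1.30 to 2.88 CPM.

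Of the 22 tested genes of the IL-1 ligands, receptors and proximal signalling, 6 rose and none fell, and the median over the 22 was 0.03 on the log2 scale, against -0.01 over all genes. They encode the ligands IL-1α and IL-33, the receptor antagonist, an inhibitory kinase and the chains *Il1rl1* and *Il1rap*. *Il1a*, the ligand IL-1α, had no counts in the untreated libraries and 0.360, 0.374 and 0.384 CPM after IL-1β, at least 5.35-fold higher against a floor of 3 counts per library. *Il33*, an alarmin of the same family, rose by 2.22 on the log2 scale, and *Il1rl1*, the receptor for IL-33, had 746, 615 and 667 CPM untreated and 1502, 1368 and 1517 CPM after IL-1β (log2 fold change 1.11 ± 0.18 SE, FDR = 0.000546 by edgeR). *Irak3*, an IRAK protein that dampens the signal, rose by 1.27 (edgeR FDR = 0.00312). *Il1rn*, the receptor antagonist, had 2.85, 4.20 and 5.19 CPM untreated and 11.8, 17.2 and 20.2 CPM after IL-1β (log2 fold change 2.01, edgeR FDR = 0.0128), and the call was lost without untreated replicate 1 (log2 1.81, FDR = 0.0626) or untreated replicate 2 (log2 2.03, FDR = 0.0578). For the receptor *Il1r1* itself the log2 fold change was 0.25 (edgeR FDR = 0.453, and 0.0725 with the replicate block), and the gene was called higher with the block within each genotype, in the fit of the 6 libraries with the block, and without a filter on low counts. The adaptor *Myd88*, with 35.0 to 41.8 CPM in all 6 libraries, had a log2 fold change of 0.00 (edgeR FDR = 0.995).

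Of 5 genes for NF-κB subunits 3 rose, *Nfkb1* by 0.94, *Nfkb2* by 0.51 and *Relb* by 0.76 on the log2 scale. *Nfkb1*, which encodes p105 and p50, had 144, 155 and 150 CPM untreated and 251, 311 and 303 CPM after IL-1β. The log2 fold changes of *Rela* and *Rel*, which encode the subunits that hold activation domains in the canonical dimers, were 0.10 (edgeR FDR = 0.591) and 0.13 (edgeR FDR = 0.613), and both were called higher only in the fit of the 6 libraries with the replicate block, among the 18 alternatives run. Of 16 inhibitors and feedback regulators 8 rose and none fell, and 11 rose with the replicate block. *Zc3h12a*, which encodes the RNase regnase-1 that degrades cytokine mRNA, had 9.24, 9.05 and 7.71 CPM untreated and 56.4, 66.8 and 77.6 CPM after IL-1β (log2 fold change 2.95 ± 0.17 SE, FDR = 1.13e-10 by edgeR). *Tnfaip3*, the ubiquitin-editing enzyme A20, and *Nfkbiz*, a nuclear IκB protein, each rose by 1.75. *Nfkbia*, which encodes IκBα, had 72.7, 76.7 and 59.4 CPM untreated and 180, 216 and 197 CPM after IL-1β, a rise of 1.5. *Tnip3*, an A20-binding partner at 0.548 to 0.812 CPM in untreated cells, rose by 2.11. For these 5 genes no untreated library reached the lowest stimulated one. Among 11 kinases and adaptors around IKK, *Ripk2*, *Map3k8*, *Ikbke* and *Traf2* rose by 0.90, 0.88, 0.82 and 0.47. *Map3k14*, which encodes the NF-κB-inducing kinase NIK of the alternative pathway, fell from 15.2, 17.4 and 17.7 CPM to 11.8, 12.9 and 12.2 CPM (log2 fold change -0.45 ± 0.09 SE, FDR = 0.00359 by edgeR).

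Of 5 tested chemokine genes that attract neutrophils 4 rose, with a median over the 5 of 4.66. *Cxcl5* had 74.2, 73.3 and 60.9 CPM untreated and 1588, 1762 and 1939 CPM after IL-1β (log2 fold change 4.67 ± 0.19 SE, FDR = 1.13e-12 by edgeR). *Cxcl1* had 12.5, 13.3 and 9.14 CPM untreated and 573, 549 and 611 CPM after IL-1β (log2 fold change 5.63 ± 0.23 SE, FDR = 1.13e-12 by edgeR). *Cxcl2* rose from between 0.714 and 1.49 CPM to between 29.6 and 31.6 CPM, and *Cxcl3* from between 0.167 and 0.294 CPM to between 4.44 and 5.11 CPM, with log2 fold changes of 4.66 and 4.45. In each of the 4 genes the lowest stimulated library was over the highest untreated one by more than any spread within a group. These genes are neighbours. On chromosome 5 of GRCm38, from 90759360 to 91093646, 7 of the 10 genes tested rose, *Cxcl5*, *Cxcl3*, *Cxcl1*, *Gm22816*, *Cxcl2*, *Mthfd2l* and *Ereg*, a run of neighbours at most 200000 bases apart that was noticed after the values were seen. *Ereg*, a ligand of the EGF receptor, had 121, 91.2 and 104 CPM untreated and 452, 402 and 468 CPM after IL-1β (log2 fold change 2.06 ± 0.21 SE, FDR = 1.34e-06 by edgeR). *Mthfd2l*, an enzyme of folate metabolism in mitochondria, rose by 0.33 (SE 0.07, edgeR FDR = 0.00569). *Cxcl1*, *Cxcl2* and *Cxcl3* resemble each other in sequence, so that read pairs which fit more than 1 of them went uncounted.

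The 150 bases before the start of *Cxcl1*, *Cxcl2* and *Cxcl3* are shown because the neighbours share an NF-κB motif in nearly the same place. The sequences are from RefSeq on GRCm38.p6, the capitals mark matches to the 10-letter NF-κB consensus, which was searched on both strands, and in each of the 3 promoters a forward and a reverse match overlap by all but 1 base.
Cxcl1, chr5:90891095-90891244, plus strand: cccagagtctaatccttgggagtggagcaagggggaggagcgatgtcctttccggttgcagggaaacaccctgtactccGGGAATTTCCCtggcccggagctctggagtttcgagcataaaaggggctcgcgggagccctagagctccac
Cxcl2, chr5:90903749-90903898, plus strand: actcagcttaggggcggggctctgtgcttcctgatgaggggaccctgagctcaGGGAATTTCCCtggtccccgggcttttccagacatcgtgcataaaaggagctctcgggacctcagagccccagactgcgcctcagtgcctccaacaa
Cxcl3, chr5:90785951-90786100, plus strand: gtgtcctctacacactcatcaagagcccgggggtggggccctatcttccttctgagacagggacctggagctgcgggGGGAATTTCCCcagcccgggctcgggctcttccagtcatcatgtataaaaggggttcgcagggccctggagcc
The run GGGAATTTCCC is the same in all 3 and starts 71, 97 and 73 bases before the start of *Cxcl1*, *Cxcl2* and *Cxcl3*. The consensus was found in 2.93% of the 13900 promoters of tested genes over this length. A match is a description of the letters and not of a bound site. *Cxcl5* is named without a sequence.

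Of 12 CC and CX3C chemokine genes 4 rose and none fell. *Ccl2* and *Ccl7*, which attract monocytes and lie side by side on chromosome 11, rose by 2.17 and 1.55 on the log2 scale. *Ccl7* had 147, 181 and 143 CPM untreated and 468, 478 and 439 CPM after IL-1β. *Ccl5* rose by 1.99, from 1.58, 1.18 and 1.05 CPM to 3.72, 6.90 and 4.56 CPM (edgeR FDR = 0.00737), and its FDR was 0.0525 without IL-1β replicate 2 (log2 1.70). *Cx3cl1*, with 18.5 to 19.2 CPM untreated and 24.3 to 32.0 CPM after IL-1β, rose by 0.62 (edgeR FDR = 0.0317), and lost the call in 5 of 6 fits that left out 1 library, in all but the one without IL-1β replicate 1, with log2 fold changes of 0.57 to 0.64 and FDRs up to 0.127. Of 5 other CXC chemokines 1 rose and 1 fell, or 2 and 2 with the block. *Cxcl16* rose by 2.27 (edgeR FDR = 3.03e-05). *Cxcl14* fell by 0.94 (edgeR FDR = 0.0214), with FDRs of 0.0593 to 0.104 without untreated replicate 2 or 3 or IL-1β replicate 1 or 3. For *Cxcl12*, a chemokine of resting stroma, the log2 fold change was -0.38 (edgeR FDR = 0.553, and 0.0334 with the replicate block).

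Of the 7 tested ligands of the IL-6 family, which signal through gp130, 2 rose, or 3 with the block. *Il6* had 2.22, 2.02 and 1.43 CPM untreated and 121, 109 and 125 CPM after IL-1β (log2 fold change 5.96 ± 0.27 SE, FDR = 5.03e-12 by edgeR). *Lif*, the leukemia inhibitory factor, had 10.9, 9.42 and 7.43 CPM untreated and 81.0, 67.9 and 80.8 CPM after IL-1β, a log2 fold change of 3.05. For both genes the stimulated libraries lay far above the untreated ones and within a narrow range of each other. For *Il11* the log2 fold change was 0.81 (edgeR FDR = 0.0712, and 0.00240 with the replicate block), with 10.2 to 13.4 CPM untreated and 17.9 to 24.6 CPM after IL-1β, and for *Clcf1* it was -0.04 (edgeR FDR = 0.970). *Il11* was called higher in 8 of 18 alternatives, among them DESeq2, a fit of the compared groups only and the fit without replicate 1. Of 6 receptor genes only *Il6st*, which encodes gp130, passed, with 436, 538 and 478 CPM untreated and 639, 906 and 849 CPM after IL-1β, a rise of 0.72 (edgeR FDR = 0.00463). Among 13 SOCS and other feedback inhibitors of cytokine signalling none was called in the main edgeR fit, over all 24 libraries without the block. With the block 1 rose and 1 fell, and 1 rose in the fit without replicate 1. *Socs3*, an inhibitor that IL-6 family signalling induces in many cells, had 40.5, 48.1 and 54.8 CPM untreated and 49.6, 71.5 and 79.4 CPM after IL-1β (log2 0.48, edgeR FDR = 0.391, and 0.00600 with the block). Its groups overlapped.

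The 150 bases before the start of *Il6* hold 1 match to the NF-κB consensus, in capitals, that begins 44 bases before the start.
Il6, chr5:30012964-30013113, plus strand: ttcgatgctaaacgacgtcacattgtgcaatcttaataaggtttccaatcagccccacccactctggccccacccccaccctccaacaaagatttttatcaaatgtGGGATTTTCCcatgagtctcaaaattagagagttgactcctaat
*Il6* also has a C/EBP motif, TTGCNNAA read on either strand, 128 bases before the start, and an AP-1 motif, TGANTCA, 249 bases before it, outside the stretch printed.

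Of 10 colony-stimulating factors and relatives, *Csf3* and *Csf2* rose, and with the block 3 members rose and 1 fell. *Csf3*, which encodes G-CSF, a growth factor of neutrophils, had 0.272, 0.0696 and 0.143 CPM untreated and 10.9, 9.51 and 14.3 CPM after IL-1β (log2 fold change 6.13 ± 0.55 SE, FDR = 2.05e-07 by edgeR). *Csf2*, which encodes GM-CSF, had 1 count in the untreated libraries and 65 after IL-1β, a ratio of 63.9 with a 95% counting interval from 11.1 to 2562. Of 16 genes of the TNF superfamily 7 rose and 1 fell, and 7 rose and 5 fell with the block. *Fas*, a death receptor, had 17.0, 26.0 and 19.5 CPM untreated and 102, 129 and 121 CPM after IL-1β (log2 fold change 2.49 ± 0.26 SE, FDR = 1.61e-06 by edgeR). *Tnfsf15*, a T-cell costimulator, rose by 5.23 from 0, 0.0232 and 0.0952 CPM to 1.22, 1.95 and 1.51 CPM, and *Tnfrsf9*, which encodes 4-1BB, rose by 1.22. *Tnfsf11*, which encodes RANKL, the factor that drives osteoclast formation, had 46.8, 49.9 and 60.1 CPM untreated and 95.3, 129 and 151 CPM after IL-1β (log2 1.26, edgeR FDR = 0.0107), and without untreated replicate 2 its FDR was 0.0567 (log2 1.23).

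Secreted proteins of the acute phase formed the list with the next largest median. Of 16 tested genes 8 rose and none fell, and 11 rose with the block. The median log2 fold change over the 16 was 1.66, or 1.09 with genes at or under 3 counts per library set to their bound. *Saa3*, a serum amyloid A protein, had 1.11, 2.69 and 1.36 CPM untreated and 70.3, 178 and 166 CPM after IL-1β (log2 fold change 6.33 ± 0.72 SE, FDR = 5.63e-06 by edgeR). *Lcn2*, a lipocalin that binds bacterial siderophores, had 0.679, 0.928 and 1.10 CPM untreated and 33.7, 66.8 and 74.6 CPM after IL-1β (log2 fold change 6.02 ± 0.58 SE, FDR = 1.34e-06 by edgeR). *Hp*, haptoglobin, rose by 3.22 to 0.576, 1.93 and 1.46 CPM. Protease inhibitors of the *Serpina3* cluster on chromosome 12, where 4 of the 5 tested genes rose, included *Serpina3h*, with 4.82, 8.03 and 5.19 CPM untreated and 31.3, 46.4 and 39.5 CPM after IL-1β, as well as *Serpina3f* and *Serpina3i*. *Serpina3f* and *Serpina3i* rose by 2.50 and 2.26 on the log2 scale, and because the copies resemble each other the split of reads among them is uncertain. Of 12 complement genes 2 rose, *C3*, the central component, by 1.22 and *Serping1*, the C1 inhibitor, by 2.58, and with the block 4 rose and 3 fell. *C3* had 136, 172 and 160 CPM untreated and 275, 395 and 422 CPM after IL-1β.

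Of 21 genes of zinc and iron transport and storage 5 rose, or 8 with the block, and none fell. *Steap4*, a metalloreductase counted with the acute-phase genes, had 0.679, 1.11 and 1.19 CPM untreated and 14.7, 27.5 and 29.3 CPM after IL-1β (log2 fold change 4.59 ± 0.52 SE, FDR = 6.09e-06 by edgeR). *Slc11a2*, the iron importer DMT1, had 94.8, 94.8 and 89.1 CPM untreated and 224, 270 and 254 CPM after IL-1β (log2 fold change 1.42 ± 0.08 SE, FDR = 8.09e-11 by edgeR). *Mt2*, a metallothionein that binds zinc, rose by 1.15, and *Slc39a14*, the zinc and iron importer ZIP14, rose by 0.68. *Fth1*, the heavy chain of ferritin, rose by 0.53, from between 1563 and 1821 CPM to between 2008 and 2758 CPM.

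Of 16 genes of nitric oxide and arginine metabolism 6 rose and none fell, or 6 and 1 with the block. Besides *Nos2* they included *Slc7a2*, which imports arginine, and *Gch1*, the rate-limiting enzyme for the cofactor tetrahydrobiopterin. *Slc7a2* had 32.6, 35.3 and 30.0 CPM untreated and 187, 295 and 273 CPM after IL-1β (log2 fold change 2.95 ± 0.24 SE, FDR = 4.54e-08 by edgeR). *Gch1* rose by 2.25. Untreated wild-type libraries had at most 0.0522 CPM of *Slc7a2* and at most 0.467 CPM after IL-1β. Of 16 genes for prostaglandin synthesis and receptors 6 rose. *Ptgs2*, the cyclooxygenase COX-2, had 177, 104 and 104 CPM untreated and 789, 577 and 757 CPM after IL-1β (log2 fold change 2.46 ± 0.26 SE, FDR = 2.41e-06 by edgeR). *Ptges*, the inducible prostaglandin E synthase, rose by 2.23, *Pla2g4a*, the phospholipase that frees arachidonic acid, by 0.41, *Ptger2*, a receptor for prostaglandin E2, by 1.31 and *Ptgfr*, the receptor for prostaglandin F, by 1.10. *Pla2g4a* and *Ptgs2* belong to a run of 4 neighbours on chromosome 1 in which all 4 tested genes rose.

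Of 16 matrix metalloproteinases 6 rose and 1 fell, and with the block 6 rose and 4 fell. *Mmp13*, a collagenase, had 42.5, 36.8 and 52.2 CPM untreated and 356, 420 and 570 CPM after IL-1β (log2 fold change 3.35 ± 0.51 SE, FDR = 0.000203 by edgeR). *Mmp3*, stromelysin 1, had 94.6, 84.5 and 76.2 CPM untreated and 507, 629 and 628 CPM after IL-1β (log2 fold change 2.79 ± 0.27 SE, FDR = 6.92e-07 by edgeR). *Mmp10*, stromelysin 2, had 2.22, 1.18 and 1.90 CPM untreated and 18.0, 12.5 and 19.96 CPM after IL-1β, a log2 fold change of 3.25. *Mmp12*, the macrophage elastase, rose by 5.72, with 3.41, 10.6 and 13.4 CPM after IL-1β, the lowest value in replicate 1. All 6 metalloproteinase genes tested on chromosome 9 between 7272514 and 7510240 rose, and this count includes *Mmp1a* and *Mmp1b*, similar copies whose read counts are uncertain. *Mmp1b* rose by 3.47. *Mmp1a* had 4 counts untreated and 45 after IL-1β, a ratio of 11.1 with a 95% counting interval from 4.03 to 42.3, and its FDR of 0.0123 became 0.0626 without untreated replicate 1. *Mmp9*, a gelatinase that lies on chromosome 2, rose by 1.90 from 5.46, 6.13 and 6.14 CPM to 15.5, 23.9 and 26.8 CPM. *Mmp1b* was not in the list. *Mmp16*, a membrane-bound protease, fell by 0.62 (edgeR FDR = 0.00747), with FDRs of 0.0515 without untreated replicate 2 and 0.0518 without IL-1β replicate 1.

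An AP-1 motif, TGANTCA, lies within 100 bases of the start in each of the 6 neighbours on chromosome 9, and 3 of their promoters are shown with it in capitals, again as the 150 bases before the start from RefSeq on GRCm38.p6.
Mmp13, chr9:7272364-7272513, plus strand: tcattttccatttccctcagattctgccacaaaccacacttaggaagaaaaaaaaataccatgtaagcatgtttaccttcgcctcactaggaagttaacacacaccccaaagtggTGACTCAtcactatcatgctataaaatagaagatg
Mmp3, chr9:7445672-7445821, plus strand: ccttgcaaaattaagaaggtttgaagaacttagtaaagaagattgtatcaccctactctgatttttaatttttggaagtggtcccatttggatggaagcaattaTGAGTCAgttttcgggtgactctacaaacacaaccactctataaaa
Mmp10, chr9:7502192-7502341, plus strand: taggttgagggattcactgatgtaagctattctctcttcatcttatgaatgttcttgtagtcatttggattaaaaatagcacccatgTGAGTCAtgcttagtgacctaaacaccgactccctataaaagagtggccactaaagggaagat
It starts 35 bases before the start in *Mmp13*, 46 in *Mmp3*, 63 in *Mmp10*, 44 in *Mmp12* at 1 of its starts, 73 in *Mmp1a* and 93 in *Mmp1b*. The motif reads the same on both strands in pattern and was found in 1.92% of all promoters of tested genes over the 100 bases before the start.

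Matrix genes changed in both directions. *Timp1*, an inhibitor of metalloproteinases, rose by 0.61 (edgeR FDR = 0.00578, and 0.0584 without untreated replicate 3), and *Serpine2*, an inhibitor of serine proteases, rose by 0.88. Of 23 collagen genes 2 rose (8.70%) and 1 fell (4.35%), against 2.65% and 2.09% of all genes, and 3 rose and 8 fell with the block. *Col8a1* and *Col5a3* rose by 1.20 and 1.17, and *Col6a3* fell from 186, 214 and 199 CPM to 115, 145 and 131 CPM (log2 fold change -0.61 ± 0.11 SE, FDR = 0.00175 by edgeR). *Dcn*, decorin, a small proteoglycan, rose by 1.33 from 228, 205 and 222 CPM to 503, 558 and 581 CPM. *Vim*, the intermediate filament vimentin, fell by 0.38. Of 17 contractile genes of myofibroblasts none was called in the main edgeR fit, while 3 fell with the block and 1 fell without replicate 1. Of 14 adhesion molecules for leukocytes 3 rose, *Icam1* by 3.36 to between 0.408 and 1.27 CPM, *Vcam1* by 1.38 and *Cd47* by 0.79, and 5 rose with the block.

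Among transcription factors, 6 of 22 immediate early and AP-1 genes rose and none fell, and 10 rose and 2 fell with the block. *Ier3* had 78.2, 74.5 and 70.3 CPM untreated and 223, 226 and 237 CPM after IL-1β (log2 fold change 1.62 ± 0.08 SE, FDR = 2.41e-11 by edgeR). *Fosl1*, an AP-1 subunit, rose by 0.68 and *Ier5* by 0.44. *Cebpd*, which encodes C/EBPδ, had 15.7, 19.8 and 16.1 CPM untreated and 88.3, 108 and 108 CPM after IL-1β (log2 fold change 2.56 ± 0.23 SE, FDR = 2.05e-07 by edgeR). *Cebpb*, the related C/EBPβ, rose by 0.79 (edgeR FDR = 0.0367), and its FDR was 0.115 to 0.137 without untreated replicate 1 or 2 or IL-1β replicate 2 or 3. Promoters of 250 bases before to 50 bases after the start were available for 319 of the 464 genes that rose, 278 of the 367 that fell and 10887 of the tested genes. The NF-κB consensus was found in 10.6% of the 417 promoters of genes that rose, 6.42% of the 374 of genes that fell and 5.41% of all 13900. For the AP-1 motif, found in 46 of the 417, the latter shares were 7.75% and 5.60%, and for the C/EBP motif TTGCNNAA they were 15.3%, 5.08% and 8.21%. The cyclic AMP response element TGACGTCA, the full site of CREB, was found in 2.64%, 2.14% and 2.93%. Only these exact letters were searched, so that shorter or variant sites of CREB were not counted. Among the 66 promoters of genes with a log2 fold change over 2 the shares were 13.6% for NF-κB, 24.2% for AP-1, 28.8% for C/EBP and 3.03% for the cyclic AMP response element. These 66 promoters had a median GC content of 52.0%, against 60.7% over all 13900, and the part of base composition in the shares was not tested. *Lcn2* and *Saa3* have a C/EBP motif 216 and 99 bases before the start.

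Of 12 inflammasome and pattern recognition genes 4 rose and none fell, or 4 and 1 with the block. *Tlr2*, a receptor for bacterial lipoproteins, had 23, 25.9 and 25.6 CPM untreated and 52.8, 78.8 and 81.5 CPM after IL-1β (log2 fold change 1.52 ± 0.24 SE, FDR = 0.000389 by edgeR), and *Nod2* and *Cd14* rose by 1.22 and 0.65. *Mefv*, which encodes pyrin, had no counts untreated and was at least 3.89-fold higher after IL-1β. *Sod2*, the mitochondrial superoxide dismutase, had 129, 143 and 136 CPM untreated and 347, 533 and 521 CPM after IL-1β, a log2 fold change of 1.78, and *Slc7a11*, the cystine transporter, rose by 1.26. Among growth factors *Fgf7* rose by 1.23 and *Vegfc*, a growth factor of lymphatic vessels, by 0.72. *Vegfa* rose by 0.63 (edgeR FDR = 0.0121), and its FDR was 0.0536 to 0.0973 without untreated replicate 2, IL-1β replicate 1 or IL-1β replicate 3. The receptor subunits *Ifnar2*, *Ifngr2*, *Il10rb* and *Ifnar1*, neighbours on chromosome 16 that were picked out after their values were seen, rose by 1.02, 0.79, 0.77 and 0.45. *Ifnar2* had 31.5, 32.1 and 33.9 CPM untreated and 58.0, 68.1 and 71.3 CPM after IL-1β. Of 35 interferon-stimulated genes and of 20 genes of MHC class I presentation none was called in the main edgeR fit. With the block 3 and 5 rose, and 2 and 0 rose in the fit without replicate 1. In another setting up to 12 and 7 rose.

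**Figure D3:**
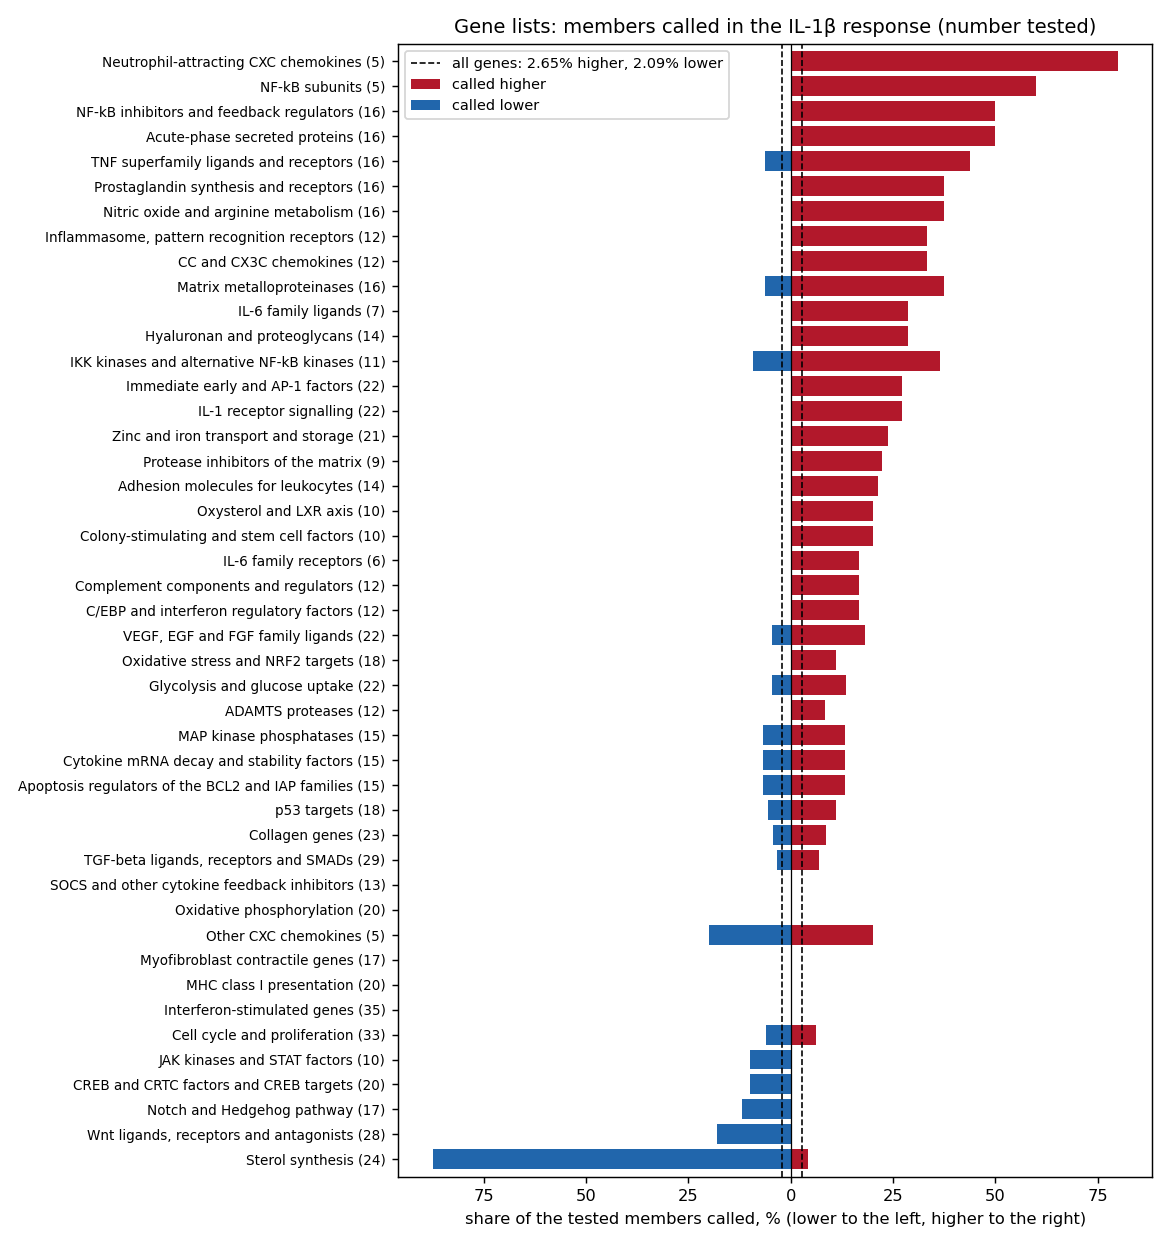
For each gene list the bars give the share of its tested members that were called higher (red, to the right) or lower (blue, to the left) after IL-1β in *Lkb1*-/- MEFs, in percent, with the number tested in brackets. Dashed lines mark 2.65% and 2.09%, the shares among all genes tested. On the right 4 of the 5 tested neutrophil-attracting chemokines are called, and sterol synthesis reaches 87.5% on the left.

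The largest coordinated fall was in sterol synthesis. These enzymes build cholesterol from acetyl-CoA by way of mevalonate, lanosterol and its products, and most of their genes are known targets of SREBP2. Of the 24 genes of this list 21 fell and 1 rose, with a median log2 fold change of -0.82 over the 24, and the counts were 22 and 1 with the block and 21 and 1 without replicate 1. *Hmgcs1*, HMG-CoA synthase, had 411, 493 and 465 CPM untreated and 217, 168 and 191 CPM after IL-1β (log2 fold change -1.25 ± 0.16 SE, FDR = 3.24e-05 by edgeR). In the mevalonate branch *Mvd*, *Mvk*, *Idi1* and *Pmvk* fell by 1.20, 0.84, 0.84 and 0.74. In the later steps *Nsdhl*, *Lss*, *Fdft1*, *Msmo1*, *Cyp51*, *Hsd17b7*, *Dhcr7* and *Sqle* fell by 1.07, 0.98, 0.96, 0.95, 0.93, 0.81, 0.80 and 0.68. For each of these 13 enzymes all 3 stimulated libraries lay below all 3 untreated ones. *Stard4*, which carries cholesterol within the cell, fell by 0.71.

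A further 3 members of the list kept the call with the block but lost it in fits without the block that left out 1 library. *Fdps* fell by 0.86 (edgeR FDR = 0.0188) and *Sc5d* by 0.34 (edgeR FDR = 0.0277), and both lost the call in 5 of 6 fits that left out 1 library, in all but the one without IL-1β replicate 1, with FDRs of 0.0584 to 0.135 and 0.0700 to 0.172. *Srebf2*, which encodes SREBP2, fell by 0.36 (edgeR FDR = 0.0413), with FDRs of 0.134 to 0.184 without untreated replicate 2 or 3 or IL-1β replicate 1 or 2. For *Scap*, the escort of SREBP2, the log2 fold change was 0.01 (edgeR FDR = 0.973).

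The INSIG genes, which encode proteins that hold SCAP in the endoplasmic reticulum when sterols are plentiful, moved in opposite directions. *Insig1* had 152, 165 and 160 CPM untreated and 88.5, 62.4 and 71.5 CPM after IL-1β (log2 fold change -1.10 ± 0.15 SE, FDR = 7.68e-05 by edgeR). *Insig2* had 31.8, 33.4 and 34.4 CPM untreated and 50.3, 67.0 and 62.4 CPM after IL-1β (log2 fold change 0.85 ± 0.13 SE, FDR = 0.000216 by edgeR). Of 10 genes of the oxysterol and LXR axis 2 rose and none fell, or 3 and 1 with the block. *Ch25h*, the enzyme that makes 25-hydroxycholesterol, an oxysterol known to hold SREBP2 inactive, had 2.74, 4.01 and 2.81 CPM untreated and 20.4, 31.4 and 29.1 CPM after IL-1β (log2 fold change 3.08 ± 0.31 SE, FDR = 1.14e-06 by edgeR). *Cyp7b1*, which hydroxylates 25-hydroxycholesterol, had 0.521, 0.719 and 0.476 CPM untreated and 2.47, 3.93 and 4.85 CPM after IL-1β (log2 fold change 2.71 ± 0.43 SE, FDR = 0.000695 by edgeR). Whether these rises and the falls in sterol synthesis are linked was not tested. *Aacs*, which activates acetoacetate for lipid synthesis and was picked out after its values were seen, fell by 0.66 (edgeR FDR = 3.24e-05).

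The 150 bases before the start of *Hmgcs1*, the member with the largest fall, hold the sterol response element TCACNCCAC, in capitals, which begins 137 bases before the start and was searched on both strands after the fall of the list was known.
Hmgcs1, chr13:119690201-119690350, plus strand: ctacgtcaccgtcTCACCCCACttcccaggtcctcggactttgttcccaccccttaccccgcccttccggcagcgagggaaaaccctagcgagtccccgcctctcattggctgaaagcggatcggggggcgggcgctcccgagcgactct
Of the 17 promoters available for 14 of the 21 genes that fell, 1 (5.88%) held these letters, against 1.17% of all promoters over 300 bases.

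**Figure D4:**
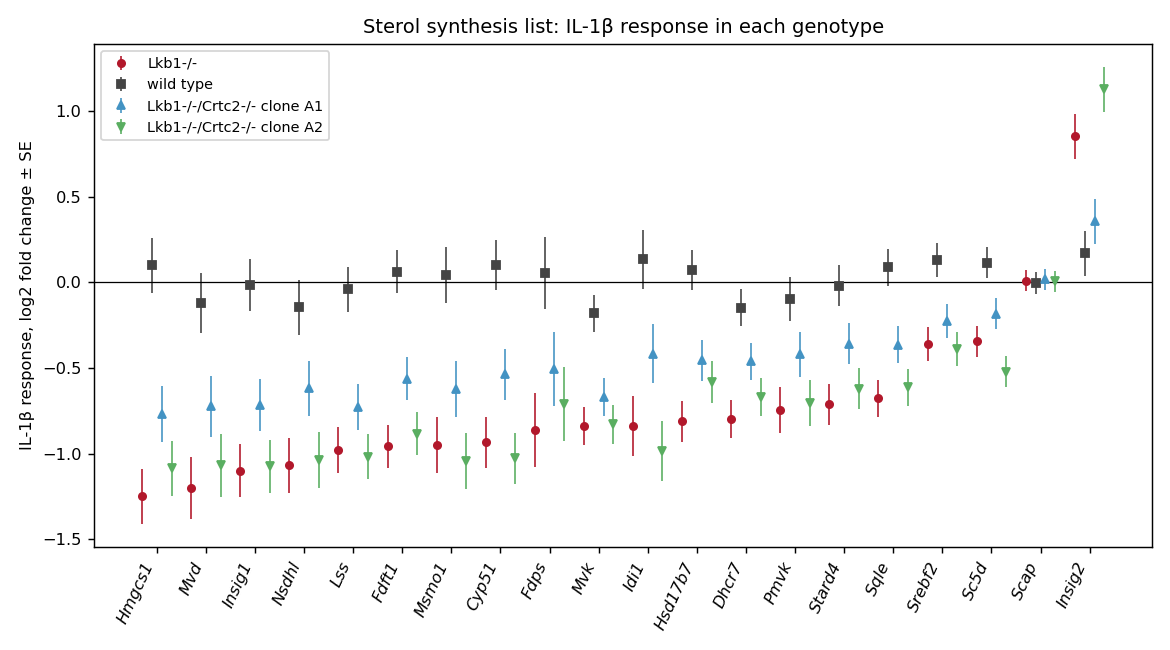
The IL-1β response of 20 of the 24 genes of the sterol synthesis list is drawn as a log2 fold change with its standard error in *Lkb1*-/- MEFs (red), wild-type MEFs (grey squares) and clones A1 (blue) and A2 (green), ordered by the response in *Lkb1*-/- MEFs. The red points run from -1.25 for *Hmgcs1* to 0.85 for *Insig2*, and the medians over the 24 are -0.82 in *Lkb1*-/-, 0.05 in wild-type, -0.46 in A1 and -0.72 in A2 cells.

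Of the 12 leading falls, ranked by the same rule as the rises, 11 were of genes outside sterol synthesis. *Fam189a2* fell from 5.30, 6.75 and 9.40 CPM to 1.20, 1.89 and 1.56 CPM (log2 fold change -2.20 ± 0.40 SE, FDR = 0.00203 by edgeR). *Kcnh2*, a potassium channel, *Gm43719*, *Aqp5*, a water channel, and *Trabd2b*, a protease that inactivates Wnt proteins, fell by 1.66, 1.62, 1.43 and 1.41. *Gm43719* starts at 13604035 on chromosome 5, just past the end of *Sema3a* at 13602565 on the same strand, so that the source of its reads is uncertain. *Kirrel3*, an adhesion protein, had 10.7, 10.6 and 10.9 CPM untreated and 4.01, 3.99 and 4.03 CPM after IL-1β (log2 fold change -1.42 ± 0.16 SE, FDR = 6.28e-06 by edgeR). *Sema3a*, a secreted guidance cue, had 121, 134 and 127 CPM untreated and 49.9, 53.1 and 50.3 CPM after IL-1β (log2 fold change -1.32 ± 0.10 SE, FDR = 2.41e-08 by edgeR). For both the 3 libraries of a group were nearly equal. Of the 12 leading falls, 4 lost the call in fits without the block that left out 1 library. With the block all 4 passed, with edgeR FDRs of 2.83e-05 for *Synm*, 4.55e-05 for *Gfra1*, 0.00363 for *Daam2* and 3.74e-05 for *Csf2rb*. *Synm*, an intermediate filament protein, fell by 1.82 (edgeR FDR = 0.0139), with FDRs of 0.0578, 0.0689 and 0.0874 without untreated replicate 2, untreated replicate 3 and IL-1β replicate 1. *Gfra1*, a receptor for GDNF, fell by 1.41 (edgeR FDR = 0.0403), and lost the call without any library but untreated replicate 1, with FDRs up to 0.199. *Daam2*, a formin, fell by 1.24 (edgeR FDR = 0.0366), and lost it in all 6 such fits, with FDRs up to 0.140. *Csf2rb*, a receptor subunit for GM-CSF, fell by 1.22 (edgeR FDR = 0.00755, and 0.0551 without untreated replicate 3).

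Of 28 Wnt ligands, receptors and antagonists 5 fell and none rose and the median was -0.28, while 10 fell with the block and 7 without replicate 1. *Fzd6*, a Frizzled receptor, had 21.4, 20.9 and 25.2 CPM untreated and 14.4, 13.9 and 16.2 CPM after IL-1β (log2 fold change -0.60 ± 0.11 SE, FDR = 0.00208 by edgeR), and the receptor *Fzd8* fell by 0.56. The other 3 kept the call with the block but lost it in fits without the block that left out 1 library. *Ror2*, a receptor for Wnt5a, fell by 0.66, with FDRs of 0.0567 without untreated replicate 2 and 0.0837 without IL-1β replicate 1. *Wnt10b* fell by 0.63 (FDR = 0.0512 without untreated replicate 3), and the antagonist *Dkk2* fell by 0.95 and lost the call in 5 of 6 such fits, in all but the one without IL-1β replicate 1, with FDRs up to 0.199. Of 17 genes of the Notch and Hedgehog pathways *Notch1* and *Gli2* fell, and 5 genes fell with the block. *Notch1* had 25.6, 33.7 and 36.0 CPM untreated and 14.1, 14.0 and 14.4 CPM after IL-1β (log2 fold change -1.17 ± 0.12 SE, FDR = 1.79e-06 by edgeR). *Gli2* fell by 0.73 (edgeR FDR = 0.0189), with FDRs of 0.0746 to 0.123 without untreated replicate 2 or 3 or IL-1β replicate 1.

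The LKB1 pathway restrains the CRTC coactivators of CREB. Of 20 tested members of the list of CREB and CRTC factors and CREB targets 2 fell, 4 with the block, and none rose in either fit, with a median of 0.00 on the log2 scale, while 3 rose with the block within each genotype and 4 in the fit of the 6 libraries with the block. *Penk*, which rose by 3.62 on the log2 scale (edgeR FDR = 7.64e-09), was counted outside this list, which does not hold every target of CREB. *Pde4d*, a phosphodiesterase that breaks down cyclic AMP, had 131, 157 and 171 CPM untreated and 83.3, 97.8 and 104 CPM after IL-1β (log2 -0.68, edgeR FDR = 0.0146), with FDRs of 0.0585 to 0.0917 without untreated replicate 2 or 3 or IL-1β replicate 1. *Bdnf*, a neurotrophin, fell by 0.59 (edgeR FDR = 0.0280), with FDRs of 0.0645 to 0.199 without untreated replicate 1 or 2 or IL-1β replicate 2 or 3.

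Of 22 genes of glycolysis 3 rose (13.6%) and 1 fell (4.55%), against 2.65% and 2.09% of all genes. The counts were 4 and 2 with the block and 5 and 1 without replicate 1, and up to 12 rose in another setting. *Hk2*, a hexokinase, had 68.3, 70.2 and 59.2 CPM untreated and 90.5, 128 and 112 CPM after IL-1β (log2 fold change 0.74 ± 0.14 SE, FDR = 0.00155 by edgeR). *Slc2a1*, the glucose transporter GLUT1, rose by 0.61 (FDR = 0.102 without IL-1β replicate 2) and *Pfkfb3*, which makes an activator of glycolysis, by 0.48 (FDR = 0.0644 without untreated replicate 3), both by edgeR. *Ldhb*, a lactate dehydrogenase subunit, fell by 0.65 and lost the call in all 6 fits that left out 1 library. Of 20 genes of oxidative phosphorylation none was called in the main edgeR fit. With the block 1 rose and 1 fell, and 1 rose without replicate 1. Among 15 regulators of the BCL2 and IAP families the killers *Bid* and *Bcl2l11*, which encodes BIM, rose by 0.49 and 0.71, and with the block 4 members rose and 3 fell. *Birc3*, which encodes an IAP protein, an inhibitor of cell death, rose by 0.86 (edgeR FDR = 0.00303). *Bid* had 51.3, 50.7 and 46.5 CPM untreated and 68.2, 71.5 and 69.0 CPM after IL-1β. *Bcl2*, an inhibitor of cell death, fell by 0.38, with FDRs of 0.0697 to 0.137 by edgeR without untreated replicate 2 or 3 or IL-1β replicate 1 or 2.

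Of 14 genes of hyaluronan and proteoglycans 4 rose and none fell, *Dcn* among them, and 5 rose and 2 fell with the block. *Sdc4*, the cell-surface proteoglycan syndecan 4, had 531, 577 and 549 CPM untreated and 703, 836 and 821 CPM after IL-1β (log2 fold change 0.51 ± 0.09 SE, FDR = 0.00114 by edgeR), and *Sdc1*, syndecan 1, rose by 0.49. *Tnfaip6*, a hyaluronan-binding protein that TNF induces, rose by 0.56 (FDR = 0.0549 by edgeR without untreated replicate 2). Of 29 genes of TGF-β signalling 2 rose (6.90%) and 1 fell (3.45%), against 2.65% and 2.09% of all genes. With the block 4 rose and 8 fell, where 5.77% and 9.07% of all genes did. The ligand *Tgfb3* fell from 25.1, 29.0 and 31.7 CPM to 16, 18.4 and 19.2 CPM (log2 fold change -0.68 ± 0.14 SE, FDR = 0.00440 by edgeR). The activin antagonist *Fst* rose by 1.30 (FDR = 0.0609 by edgeR without untreated replicate 3) and the coreceptor *Tgfbr3* by 0.46 (FDR = 0.0537 without IL-1β replicate 2). Of 15 factors of cytokine mRNA decay 2 rose and 1 fell, or 3 and 1 with the block. *Zc3h12c*, a relative of *Zc3h12a*, had 37.4, 35.2 and 33.8 CPM untreated and 53.2, 57.9 and 60.8 CPM after IL-1β (log2 fold change 0.69 ± 0.09 SE, FDR = 3.17e-05 by edgeR). *Zfp36*, which encodes the decay factor tristetraprolin, fell by 0.37 (FDR = 0.0517 by edgeR without untreated replicate 2). Its relative *Zfp36l1* rose by 0.46, with FDRs of 0.0589 to 0.108 without untreated replicate 1 or IL-1β replicate 2 or 3.

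The posterior *HoxA* genes, which mark limb position and were picked out after their values were seen, fell as neighbours. On chromosome 6 from 52223100 to 52267603, 7 of the 9 genes tested fell, among them *Hoxa9*, *Hoxa10*, *Hoxa11* and *Hoxa13*, by 0.45, 0.82, 0.82 and 0.90. *Hoxa11* had 52.7, 56.7 and 60.0 CPM untreated and 28.0, 34.3 and 33.6 CPM after IL-1β (edgeR FDR = 4.95e-05). *Hottip*, a long noncoding RNA at the end of the run, fell by 1.14, with 0.576 to 1.01 CPM after IL-1β, and its FDR was 0.0636 without IL-1β replicate 1. Of 33 cell cycle genes 2 rose and 2 fell (6.06% each), against 2.65% and 2.09% of all genes, or 3 and 5 with the block. *Crtc2* itself had a log2 fold change of 0.03 (edgeR FDR = 0.909).

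The response was then set beside that of the other genotypes, which have their own untreated libraries. Of the 464 genes that rose in *Lkb1*-/- MEFs, 162 were also called higher in wild-type MEFs, which is 34.9% of the 464 and 60.4% of the 268 genes (1.53% of those tested) called higher there. Of the 367 genes that fell, 45 were also called lower in wild-type MEFs, 12.3% of the 367 and 35.2% of 128 (0.731%). The median log2 fold change of the 464 genes was 0.37 in wild-type MEFs, 0.52 in A1 and 0.73 in A2, and that of the 367 genes was -0.21, -0.39 and -0.52. The genes were chosen by their response in *Lkb1*-/- MEFs, so that these medians describe them and do not compare the genotypes.

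The difference between the responses, which the same edgeR fit tested directly, was called for 43 genes (0.245% of those tested, 0.137% positive and 0.108% negative) between *Lkb1*-/- and wild-type MEFs. Of the 464 genes that rose, 22 rose more and 3 less than in wild-type MEFs, and of the 367 that fell, 13 fell more, or 93, 11 and 85 with the block, where 0.748% of all genes had a positive and 1.03% a negative difference. The 43 became 23 without untreated *Lkb1*-/- replicate 2 or 3, 25 without *Lkb1*-/- IL-1β replicate 3 and 28 without wild-type IL-1β replicate 2. *Lif* differed by 2.24 (edgeR FDR = 6.97e-06), since its log2 fold change was 0.81 in wild-type MEFs. *Tbx3*, a T-box transcription factor, had 33.3, 32.2 and 34.1 CPM untreated and 80.7, 77.9 and 89.0 CPM after IL-1β in *Lkb1*-/- MEFs, while wild-type MEFs had 26.6, 28.5 and 27.4 CPM and 25.8, 23.8 and 23.4 CPM. The responses of *Tbx3* differed by 1.49 (SE 0.12, edgeR FDR = 4.82e-07). *Slc39a14* went from 151 to 154 CPM to 217 to 259 CPM in *Lkb1*-/- MEFs and from 126 to 142 CPM to 119 to 130 CPM in wild-type MEFs, a difference of 0.77 (SE 0.11, edgeR FDR = 0.000773). *Lmo4*, a transcription cofactor, *Sema3c*, a guidance cue, and *Ppm1h*, a phosphatase, rose in *Lkb1*-/- MEFs by 1.46, 1.55 and 1.95, and their responses differed from wild type by 1.38, 1.31 and 2.26. *Ppm1h* stood lower in *Lkb1*-/- MEFs in both treatments, at 0.928 to 1.32 CPM untreated and 3.93 to 5.09 CPM after IL-1β, against 18.1 to 27.0 CPM and 15.6 to 19.9 CPM in wild-type MEFs.

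For sterol synthesis the difference was called for 7 of the 24 genes and was negative for each of them. With the block it was called for 21, of which 20 were negative, and for *Insig2* it was positive. For *Insig1*, *Cyp51*, *Lss*, *Hsd17b7* and *Sqle* the call was lost in 8 or 9 of the 12 fits that left out 1 library, and for *Hmgcs1* and *Fdft1* in none. *Hmgcs1* had 522, 751 and 684 CPM in wild-type MEFs without and 589, 802 and 706 CPM with IL-1β, and its responses differed by -1.35 (SE 0.23, edgeR FDR = 0.00779). *Fdft1*, squalene synthase, had 150, 191 and 182 CPM and 166, 195 and 184 CPM in wild-type MEFs, and its responses differed by -1.02 (SE 0.18, edgeR FDR = 0.00960). The wild-type groups overlapped for both genes, whereas the *Lkb1*-/- groups did not. *Ch25h* had at most 0.0261 CPM and *Cyp7b1* had no counts in the wild-type libraries, so that their responses there could not be measured. In clone A1 7 genes of the sterol list fell, and in A2 20, while 0.788% and 2.86% of all genes were called lower there.

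For *C3*, *Slc16a9*, *Chil1* and *Rab15* the response was smaller in *Lkb1*-/- than in wild-type MEFs, and each stood at a higher untreated level in *Lkb1*-/- MEFs. *C3* rose from 2.90, 3.73 and 4.83 CPM to 28.8, 38.6 and 48.3 CPM in wild-type MEFs (log2 fold change 3.34) and by 1.22 in *Lkb1*-/- MEFs, where the stimulated level was 275 to 422 CPM (difference -2.12, SE 0.36, edgeR FDR = 0.00800). *Slc16a9*, a transporter, rose by 3.53 in wild-type and by 1.35 in *Lkb1*-/- MEFs, with 0.313 to 0.626 CPM and 1.27 to 1.93 CPM untreated. *Chil1*, a chitinase-like protein, rose by 3.54 in wild-type MEFs and by 0.89 in *Lkb1*-/- MEFs (edgeR FDR = 0.0429), with 0.365 to 0.553 CPM and 7.74 to 9.49 CPM untreated. The latter call was lost in 5 of 6 fits that left out 1 library, in all but the one without IL-1β replicate 1, with FDRs of 0.0965 to 0.176. *Rab15*, a small GTPase of membrane traffic, rose by 2.86 in wild-type MEFs, and in *Lkb1*-/- MEFs its log2 fold change was -0.03 (edgeR FDR = 0.970), with 0.138 to 0.209 CPM and 5.30 to 7.19 CPM untreated.

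**Figure D5:**
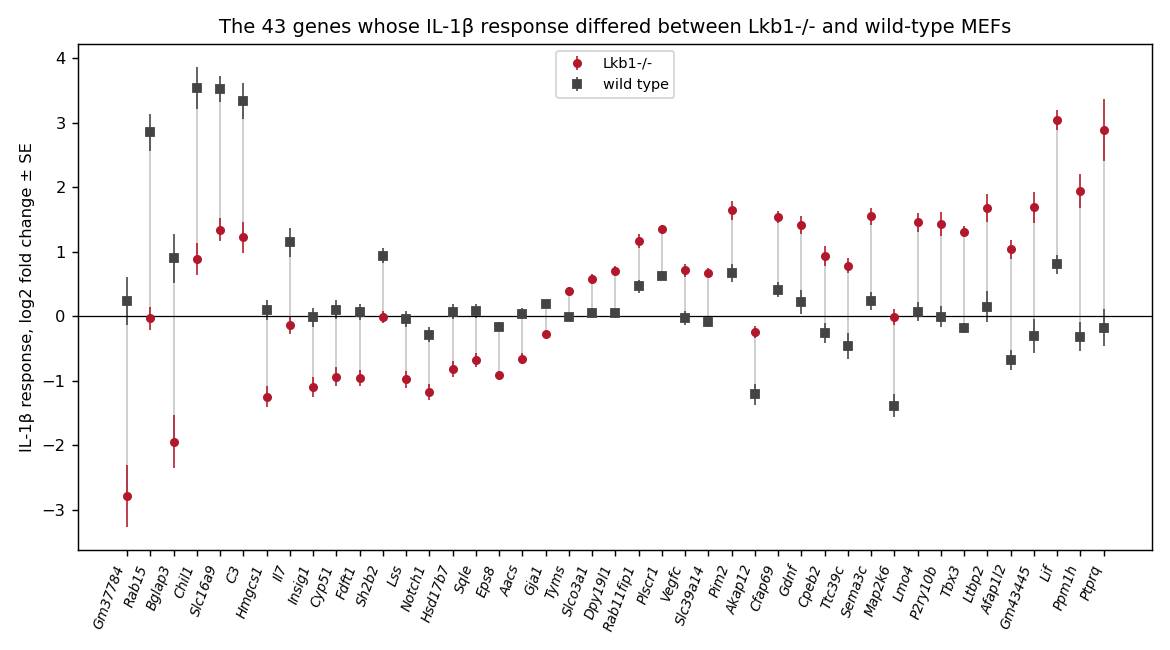
For the 43 genes whose IL-1β responses differed between *Lkb1*-/- (red) and wild-type MEFs (grey squares), both responses are drawn as log2 fold changes with standard errors and joined by a line, ordered by the difference. *Lif* and *Tbx3* lie to the right, with the red point above the grey one, and *C3* and *Hmgcs1* to the left, with the red point below.

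Between *Lkb1*-/- MEFs and clone A1 the responses differed for 5 genes (0.0285%), and each was smaller in A1. They were *Lif*, *Rab11fip1*, *Ccl2*, *Tbx3* and *Slc39a14*, with differences of -1.44, -0.87, -0.86, -0.68 and -0.67 and edgeR FDRs from 0.0148 to 0.0306, and with the block 36 genes (0.205%) were called. *Rab11fip1*, which acts in endosome recycling, went from 47.1 to 49.1 CPM to 95.4 to 126 CPM in *Lkb1*-/- MEFs and from 33.0 to 35.4 CPM to 38.7 to 46.3 CPM in A1. *Ccl2* stood higher in A1 in both treatments, at 547 to 650 CPM untreated against 166 to 220 CPM in *Lkb1*-/- MEFs. Fits that left out 1 library called between 0 and 4 of them, with 0 without untreated *Lkb1*-/- replicate 3 or IL-1β replicate 3, untreated A1 replicate 2, or A1 IL-1β replicate 1 or 2. Between *Lkb1*-/- MEFs and clone A2 the main edgeR fit called no difference, 388 genes had an unadjusted p under 0.05, DESeq2 called 10 and the block gave 18 (0.103%).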

How the data were processed

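RNA of the 24 libraries was sequenced in paired ends, and the authors trimmed the reads, aligned them with STAR to GRCm38.p6 with GENCODE genes and deposited, for every library, a table of counts per gene. The submitters' processing notes name Trim Galore 0.6.0, STAR 2.7.8a and mm10. The labels name an mRNA library kit (SMARTER) and the study's methods another kit with depletion of ribosomal RNA, so that how RNA was selected is uncertain. Of the deposited count columns, the one for the second strand was used, which held 95.6% to 95.9% of the counts of both strands in the 6 *Lkb1*-/- libraries. Lines that name no gene, 28.3% to 34.4% of pairs in these 6 libraries, entered neither the library sizes nor the tests.

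Genes were filtered with filterByExpr (minimum count 10, minimum total 15), counts were normalized by TMM, and edgeR 4.0.16 under R 4.3.3 fitted a quasi-likelihood model with 1 coefficient for each of the 8 groups of 3 over all 24 libraries. Genes were called at a Benjamini-Hochberg FDR under 0.05 over all genes tested, and the standard error was the log2 fold change divided by the square root of F. CPM values are TMM-normalized and have no prior count. The counts allow a floor of 3 counts, or 0.0617 to 0.0772 CPM, and counting intervals (95%, exact) and floors cover counting error only. Symbols were matched for 55230 of 55471 identifiers, and promoters and positions came from RefSeq and GENCODE M21 on GRCm38.

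Deviations of equally numbered untreated and IL-1β *Lkb1*-/- libraries from their group means correlated at 0.377, 0.158 and 0.233 across genes, so that the numbers pair the libraries, and those of other numbers at -0.259 to 0.0860. With 3 libraries a group, an exact permutation test of 1 gene cannot go below 0.1. In simulated data of 15866 genes for this comparison, 35 of 67 genes changed 1.5-fold, 67 of 67 changed 2-fold and 66 of 66 changed 4-fold were called. So were 8 genes that had not been changed. Only well-counted genes were changed, every gene had the same spread between libraries, and replicate 1 was not set apart, unlike in the data.

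The genes named were the 12 called genes without overlap of the groups and with a mean log2 CPM over 1 that changed most in each direction, up to 4 called members of each of 48 lists (in a list with none, up to 2 by level), genes the study names for IL-1β, and up to 4 genes a direction whose responses differed most between genotypes. Further genes were named with their values already known. The members and lists were chosen with earlier results of these data known. Alternatives used DESeq2 1.42.0, other normalizations and filters, unstranded counts, a replicate block and fits that left out libraries, of which the one without any replicate 1 was chosen after seeing the data. Some members of the lists are counted but not reported here by name.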

Additional observations from a re-analysis of the deposited data

Results flagged for a closer look

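IL-1β responses that differed between *Lkb1*-/- and wild-type MEFs, by edgeR's test of the difference itself, are given here for the 26 named genes among the 43 called, as the log2 response in *Lkb1*-/- minus that in wild type. Among secreted factors and complement these were 2.24 for *Lif*, 1.19 for *Gdnf*, 0.74 for *Vegfc*, 1.31 for *Sema3c*, -2.12 for *C3* and -2.65 for *Chil1*. Among sterol and lipid genes they were -1.35 for *Hmgcs1*, -1.08 for *Insig1*, -1.04 for *Cyp51*, -1.02 for *Fdft1*, -0.94 for *Lss*, -0.88 for *Hsd17b7*, -0.76 for *Sqle* and -0.70 for *Aacs*. Among regulators they were 1.49 for *Tbx3*, 1.38 for *Lmo4*, 2.26 for *Ppm1h*, 3.06 for *Ptprq* and -0.88 for *Notch1*. The other named genes were at 0.77 for *Slc39a14*, -2.18 for *Slc16a9*, -2.89 for *Rab15*, 0.70 for *Rab11fip1*, 0.41 for *Tyms*, 1.72 for *Afap1l2* and 1.99 for *Gm43445*, which lies within *Lmo4* on the same strand, so that its reads are uncertain.

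The calls for *Insig1*, *Cyp51*, *Lss*, *Hsd17b7*, *Sqle*, *Notch1*, *Rab11fip1*, *Vegfc* and *Gdnf* were each lost in 7 to 9 of the 12 fits that left out 1 library, and those of *Ptprq* and *Gm43445* in 3 and 1. The difference for *Gdnf* was 0.56 with unstranded counts (edgeR FDR = 0.616) and 1.23 in a fit of the compared groups only (edgeR FDR = 0.0659), neither of which passed. The calls of *Sqle* and *Rab11fip1* were also lost with unstranded counts, and those of *Cyp51* and *Hsd17b7* in a fit of the compared groups only. Between *Lkb1*-/- MEFs and clone A1 the differences, A1 minus *Lkb1*-/-, were -1.44 for *Lif*, -0.87 for *Rab11fip1*, -0.86 for *Ccl2*, -0.68 for *Tbx3* and -0.67 for *Slc39a14*, and each was lost in 5 to 10 of 12 such fits. Genotype and clone cannot be told apart in these differences.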

How the results depend on the processing

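Of 177 named genes that were called, 142 stayed called in every alternative run for them (up to 18), 35 lost the call in at least 1 and none changed direction. Of 96 counts of list members called higher or lower, 13 stayed within 1.5 times in every setting. The replicate block, which uses the pairing of the libraries, raised the 831 calls to 2601 (1011 higher, 1590 lower), to 3966 (1516 and 2450) as a block within the genotypes and to 3581 (1723 and 1858) in a fit of the 6 libraries with the block. Leaving out replicate 1 gave 1534 (735 and 799), no filter on low counts 1428 with 766 lower, and a log2 change over 1 as well 267 (206 and 61). Fits that left out 1 library gave 544 to 763 calls in all, 339 to 441 higher and 192 to 365 lower. The cause of these changes was not tested.

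The 43 differences from wild type became 76 with upper quartile normalization, 347 without a filter, 70 with at least 10 counts in every library, 112 with DESeq2, 70 in a fit of these groups only, 311 with the block, 1003 with the block within genotypes, 147 without replicate 1, 26 with a log2 difference over 1 as well, and 23 to 57 with 1 library left out. The 5 differences from clone A1 became 3 with upper quartile normalization, 141 without a filter, 3 with unstranded counts, 11 with DESeq2, 36 and 267 with the blocks, 10 without replicate 1, 1 with a log2 difference over 1 and 0 to 4 with 1 library left out. The count of 0 for clone A2 became 1 with upper quartile normalization, 68 without a filter, 10 with DESeq2, 18 and 183 with the blocks, 6 without replicate 1 and 0 to 1 with 1 library left out. In the 100 bases before the start alone, shares of promoters of genes that rose were 5.76% for the NF-κB consensus, 1.20% for the cyclic AMP response element, 4.56% for AP-1 and 6.24% for C/EBP, against 1.80%, 1.91%, 1.92% and 2.43% of all promoters in that window.

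Of the named genes that were not called, 5 with responses near 0 changed sign when 1 library was left out. Over these fits their log2 fold changes ranged from -0.227 to 0.0870 for *Clcf1*, from -0.0357 to 0.0730 for *Myd88*, from -0.00493 to 0.0398 for *Scap*, from -0.0905 to 0.0236 for *Stk11* and from -0.122 to 0.0857 for *Rab15*, and *Myd88* was at -0.0213 with unstranded counts. Of changes of 1.5-fold 52.2% were called in simulated data at this depth, so that uncalled genes may have changed by such amounts. Genes with few counts or a wide spread may have changed by more, since no gene of that kind was changed in the simulation.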
